A study of Mus musculus with 24 samples.

Results

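The genes of the proteasome were followed through the quadriceps femoris muscle, the large muscle at the front of the thigh, of 24 mice. Members were the genes whose mouse symbol begins with Psma, Psmb, Psmc, Psmd, Psme or Psmf followed by a number, and 45 of the 18669 genes in the count table met this. The detection filter was passed by 44 of them. The one left out was Psmb11, a catalytic subunit made in the thymus, which had 0 counts in all 24 libraries, a level of at most 0.134 CPM (counts scaled to the same library total) when 3 counts are allowed in the smallest library. Psmc3ip and Psme3ip1 met the naming rule as well, although they are named for partners of proteasome proteins and encode no subunit, and are given apart.

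RNA was taken 4 h after treatment from 2 mice in each of 12 groups. The groups crossed 3 genotypes with heat shock (HS), its control, HSP990 and its vehicle. All mice were on a CBA x C57BL/6 F1 background. Wild type and R6/2 mice were 12 weeks old. R6/2 mice carry a transgene with the first exon of mutant human huntingtin and are a model of Huntington's disease. Hsf1-/- mice lack heat shock factor 1, the main activator of heat shock genes, and were 10 weeks old in the HS groups and 8 weeks old in the HSP990 groups. For HS, anesthetized mice were held at 41.5 °C for 15 min in a heating pad, and control mice lay in the pad at 36.9 °C for 21 min. HSP990, an inhibitor of the chaperone HSP90, was given by mouth at 12 mg/kg in 0.2% methyl cellulose and 0.9% saline, whereas the vehicle is described as 0.9% saline alone. The study asked how muscle responds to heat and to HSP90 inhibition, and how far this depends on Hsf1 and is altered in R6/2.

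The proteasome is the cell's main machine for destroying proteins tagged with ubiquitin. Its core is a barrel of alpha rings, which gate the entrance, around beta rings, which carry the cutting sites. A regulatory particle of ATPases, which unfold and thread the substrate, and non-ATPase subunits, which bind and strip ubiquitin, caps the barrel. Activators such as Psme1 and Psme2 can cap it in another way, and interferon can replace catalytic beta subunits by the immunoproteasome subunits Psmb8, Psmb9 and Psmb10. In muscle the proteasome is best known for its part in wasting, and heat and HSP90 inhibition both produce the misfolded proteins that it removes.

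Libraries held 22450177 to 46599238 counts. Skeletal muscle fibre markers were abundant in all of them, with a summed level of 235200 to 289400 CPM in wild type and 55500 to 108500 CPM in R6/2 mice. Hsf1 stood at 52.9 to 68.6 CPM in the 8 wild type mice, 45.3 to 53.7 CPM in the 8 R6/2 mice and 21.1 to 29.0 CPM in the 8 Hsf1-/- mice, so reads remained on the gene in the knockout. Summed over 4 Y-linked genes, the wild type and R6/2 mice of the HS experiment had 0 to 4 counts, and all Hsf1-/- mice and all mice of the HSP990 experiment had 3916 to 9392. Untreated Hsf1-/- and wild type mice of the HS experiment differed in Y-linked RNA and in age as well as in genotype.

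Promoters of 4 members are shown because the results turn on these genes. Psma7, Psma6 and Psmb6 had the 3 lowest p-values in R6/2 muscle, and Psmd8 had the lowest or next lowest p-value in 4 of the 6 treatment comparisons. Each line is the 250 bases before a transcription start listed by RefSeq (GRCm38.p6), placed in mm9, the build of the study, by an exact match, and read 5′ to 3′ on the strand of the gene. For Psma6 it is the second of 2 listed starts. Capitals mark matches to the motifs searched.

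Psma7 promoter, chr2:179777170-179777419, minus strand: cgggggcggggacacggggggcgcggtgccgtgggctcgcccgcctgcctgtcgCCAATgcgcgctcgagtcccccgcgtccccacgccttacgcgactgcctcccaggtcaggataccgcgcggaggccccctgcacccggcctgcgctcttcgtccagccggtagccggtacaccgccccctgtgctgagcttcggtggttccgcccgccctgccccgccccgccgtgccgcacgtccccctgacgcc

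Psma6 promoter, chr12:56499562-56499811, plus strand: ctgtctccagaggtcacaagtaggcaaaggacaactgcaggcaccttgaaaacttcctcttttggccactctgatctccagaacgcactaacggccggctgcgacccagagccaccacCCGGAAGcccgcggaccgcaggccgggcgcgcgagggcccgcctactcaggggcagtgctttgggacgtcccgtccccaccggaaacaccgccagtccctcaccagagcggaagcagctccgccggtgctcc

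Psmb6 promoter, chr11:70338609-70338858, plus strand: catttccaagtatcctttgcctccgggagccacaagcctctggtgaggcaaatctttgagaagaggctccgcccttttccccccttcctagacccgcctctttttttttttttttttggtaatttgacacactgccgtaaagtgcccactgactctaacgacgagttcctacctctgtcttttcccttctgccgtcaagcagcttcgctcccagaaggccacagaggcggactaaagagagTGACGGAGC

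Psmd8 promoter, chr7:29965693-29965942, minus strand: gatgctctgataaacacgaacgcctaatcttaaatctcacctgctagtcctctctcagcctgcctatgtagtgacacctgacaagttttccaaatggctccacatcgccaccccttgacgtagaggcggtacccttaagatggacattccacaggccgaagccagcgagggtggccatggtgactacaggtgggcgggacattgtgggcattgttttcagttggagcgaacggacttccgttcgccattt

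The motifs were searched on both strands in the promoters of 37 members that matched the RefSeq table, and in those of 14793 genes in all. The 37 included Psmb11, the assembly chaperones Psmd5, Psmd9 and Psmd10 and the inhibitor Psmf1, and left out Psmc3ip and Psme3ip1. Psmb1, Psmb2, Psmb7, Psmc3, Psmd3 and Psmd7 did not match. The antioxidant response element, TGACNNNGC, was present in 5 of 37 (13.5%) against 12.6% of all genes, and one of these was Psmb6, where it lies in the last 9 bases before the start. CCAAT was present in 14 (37.8%) against 39.7%, with Psma7 and Psma6 (at its other listed start) among them. The ETS motif CCGGAAG was present in 11 (29.7%) against 10.9%, and the interferon element GAAANNGAAA in 3 (8.11%) against 3.53%. The heat shock element GAANNTTCNNGAA was found in 0 of 37, against 0.453% of all genes, a share so low that 0 of 37 says little. None of the searched motifs was found in the Psmd8 window. Matches of such short patterns are descriptions of the letters and were not tested for binding.

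Compared per kilobase of transcript, the subunits of the constitutive proteasome were far from equal at the RNA level in untreated wild type muscle, the 2 control and 2 vehicle mice. Psmb7, which carries the trypsin-like site, was highest at 192 CPM per kb, followed by the non-ATPase subunit Psmd8 at 150 CPM per kb and the beta subunit Psmb1 at 141 CPM per kb. The 6 ATPases were the most even family, from 60.8 to 126 CPM per kb, and the 11 non-ATPase subunits ran from 25.5 to 150 CPM per kb. The alpha ring spanned the widest range of the core, from 117 CPM per kb for Psma7 to 5.36 CPM per kb for Psma3. An alpha ring holds each of these subunits in equal number. Length was that of the transcript with the longest coding sequence, 914 bases for Psma7, 1239 for Psma5 and 2846 for Psma3. Before division by length, Psma3 had 15.3 CPM and Psma5 14.1 CPM in these mice. The range and its lowest gene therefore depend on the transcript chosen.

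The immunoproteasome genes were among the low ones, with Psmb10 at 6.01, Psmb8 at 5.38 and Psmb9 at 2.90 CPM per kb. The chaperone of regulatory particle assembly Psmd10 was at 1.74 and the activator subunit Psme2 at 3.59 CPM per kb, whereas the large activator Psme4 reached 81.0. The inhibitor Psmf1 lay at 7.67 CPM per kb. The levels of Psma4, Psma5, Psmb3, Psmb5, Psmd11 and Psme2 are uncertain, since near-identical copies of their transcripts were found elsewhere in mm9, and reads shared with a copy could have been discarded or split. How the counting treated such reads is not given in the sources used here.

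**Figure D1:**
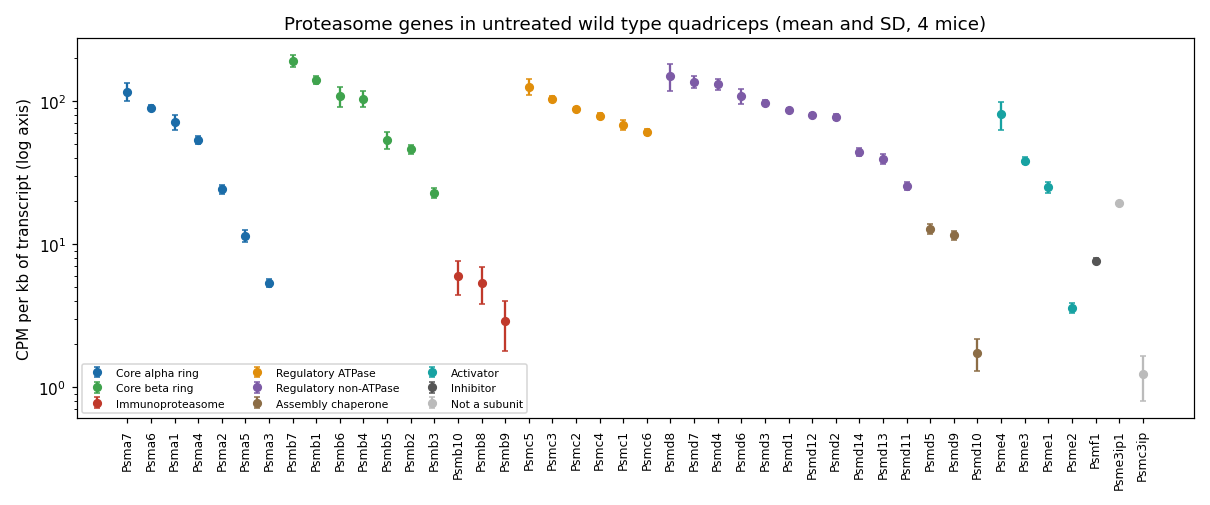
TMM-scaled CPM per kb of transcript (log axis) of 44 genes in untreated wild type muscle, as mean and SD of 4 mice, coloured by role. Psmb7 is highest at 192 CPM per kb and the immunoproteasome genes lie between 2.90 and 6.01.

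Most of these genes varied little from mouse to mouse. The pooled SD within groups had a median of 0.121 on the log2(CPM + 0.5) scale over the 44 genes, against 0.213 over all 13754 genes tested, which had a lower median level (12.8 against 79.1 CPM). The 2 mice of a group stayed within 1.5-fold of each other in all 12 groups for 33 of the 44 genes. The exceptions with 3 or more such groups were Psmb5, Psmb8, Psmb9, Psmc3ip and Psmd10, and apart from Psmb5 none of them exceeded 18.4 CPM in any mouse.

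Psmb5, the subunit with the chymotrypsin-like site and the main target of proteasome inhibitor drugs, ranged from 19.8 to 77.4 CPM with a median of 38.4 CPM. Its 2 mice differed by more than 1.5-fold in 8 of 12 groups, and its spread was at percentile 97.7 of all genes tested. The Hsf1-/- control mice had 19.8 and 55.6 CPM, the wild type HS mice 77.4 and 28.5 CPM, and the R6/2 HSP990 mice 21.4 and 56.3 CPM. High and low mice occurred in every genotype. A copy that covers 98.7% of its transcript, at a divergence of 0.0093, lies on chromosome 7 at 3181100 to 3181960, away from the gene itself on chromosome 14 (55232644 to 55236851, minus strand). The part of this copy in the spread was not tested.

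**Figure D2:**
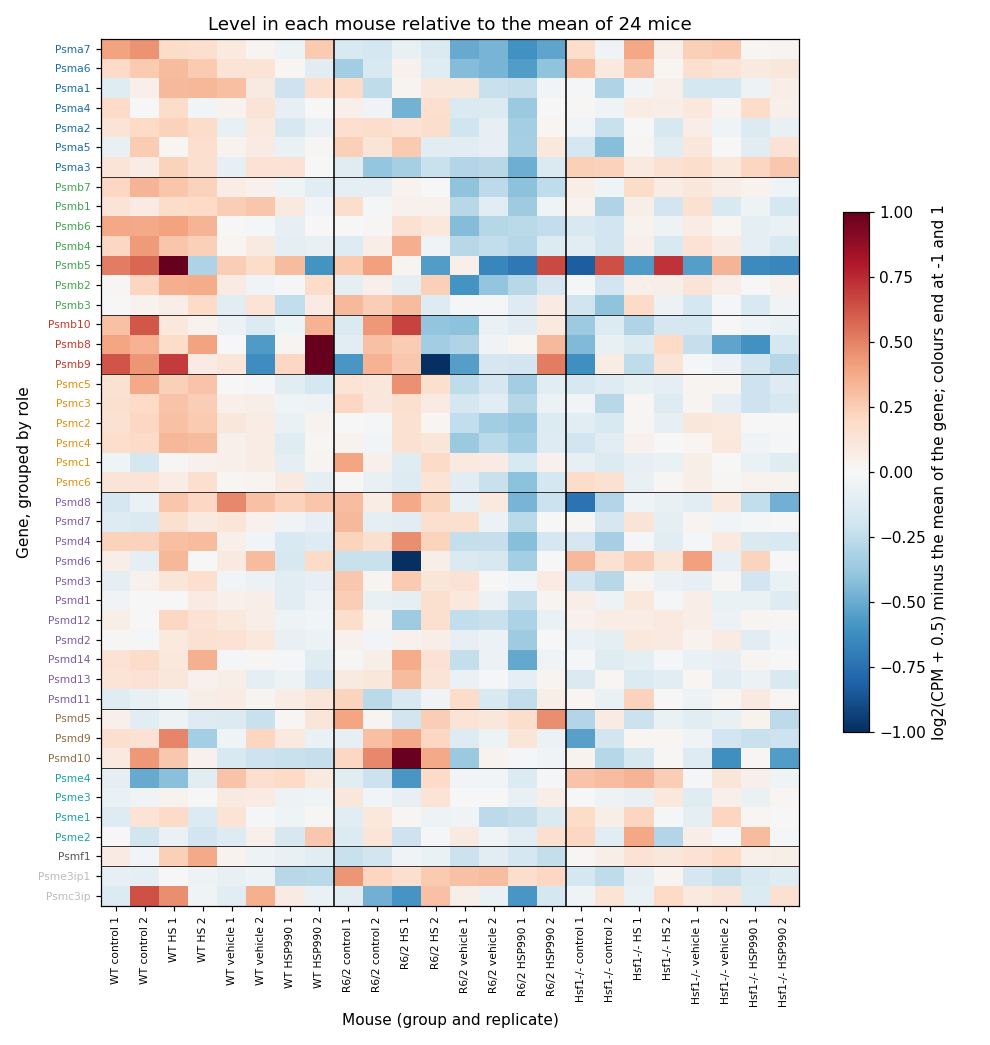
Each row is a gene and each column a mouse, with colour showing log2(CPM + 0.5) minus the mean of the gene over 24 mice. Psma7 and Psma6 are lower in R6/2 than in wild type columns under TMM scaling, and Psmb5 and the immunoproteasome rows vary between mice of the same group.

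In untreated R6/2 muscle, 7 of the 14 genes of the proteasome core fell under TMM scaling, which sets levels relative to the typical gene, a direction that turned when libraries were scaled by their size alone. No non-ATPase subunit, assembly chaperone of the regulatory particle, activator or immunoproteasome gene was called. Of the 44 genes, 11 passed an adjusted p of 0.05 in the quasi-likelihood test of edgeR, 10 of them lower and 1 higher, comparing 4 R6/2 with 4 wild type mice. That is 25% of the members, in a comparison that called 31.2% of all 13754 genes. Lower calls made up 22.7% of the members against 15.6% of all genes, and higher calls 2.27% against 15.6%. The median log2 change was -0.12 over the members and 0.05 over all genes. The calls and their direction rest on TMM scaling. Scaled by library size alone, 44 of 44 members were higher in R6/2 and 35 were called higher (79.5%, against 62.8% of all genes), at a median log2 change of 0.49 against 0.66 over all genes. Psma7 (0.03) and Psma6 (0.07) then had estimates near 0.

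The composition of the libraries differed between the genotypes as well. TMM factors were 1.19 to 1.40 in R6/2 and 0.808 to 0.954 in the other mice. The members took 0.453% to 0.632% of all counts in R6/2 against 0.375% to 0.422% in the other mice, and 9 of 9 muscle fibre markers were called lower in R6/2 with a median log2 change of -2.03. Of the other markers, 4 of 6 adipocyte markers were called lower (median -1.58), 2 of 13 leukocyte markers and 1 of 6 fibroblast markers were called higher, and 0 of 7 endothelial markers were called. The part of these shifts in the members' changes was not tested. Relative to the median of all genes, the members lay 0.17 lower on the log2 scale with either scaling (-0.168 and -0.166). A change of scaling moves all genes of a library alike. The 2 values therefore had to be nearly equal and are not separate results. In RNA of whole muscle, fewer cells of a type and less RNA per cell cannot be told apart.

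A ratio within a library does not depend on its scaling. The summed level of the 14 core genes divided by that of the 11 non-ATPase genes had a median of 0.578 in the 8 wild type (0.554 to 0.677), 0.516 in the 8 R6/2 (0.464 to 0.565) and 0.578 in the 8 Hsf1-/- mice (0.570 to 0.596). Within the HS experiment the wild type mice had 0.648, 0.677, 0.621 and 0.588 and the R6/2 mice 0.493, 0.557, 0.565 and 0.511. Within the HSP990 experiment the wild type mice had 0.554, 0.567, 0.564 and 0.557 and the R6/2 mice 0.464, 0.490, 0.523 and 0.521. Wild type and R6/2 mice did not overlap within either experiment. The Hsf1-/- mice had 0.570 to 0.596 in the HS experiment, overlapping the wild type mice at their low end, and 0.576 to 0.583 in the HSP990 experiment, above all wild type mice. This ratio was chosen after the values of single genes were seen and is a description, with no test.

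Among the alpha ring genes, Psma7 (chromosome 2, 179771078 to 179777138) had the lowest p. It had 118 and 122 CPM in wild type control mice and 95.7 and 91.0 CPM in wild type vehicle mice, against 80.1 and 79.0 CPM in R6/2 control and 62.6 and 64.5 CPM in R6/2 vehicle mice. All 4 R6/2 mice lay below all 4 wild type mice, and the vehicle groups lay below the control groups in both genotypes. The log2 change was -0.57 (SE 0.08, edgeR adjusted p = 8.2e-05).

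Psma6 lies on chromosome 12 (56485209 to 56519441). Its wild type levels were 94.4, 99.2, 90.8 and 90.9 CPM and its R6/2 levels 64.8, 73.9, 60.8 and 59.6 CPM. The groups did not overlap, and the log2 change was -0.54 (SE 0.08, edgeR adjusted p = 9.8e-05). Psma3 was also called, at 15.3 ± 1.07 CPM in wild type and 12.0 ± 0.952 CPM in R6/2 (SD, n = 4 each). The other 4 alpha genes, Psma1, Psma2, Psma4 and Psma5, were not called.

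In the beta ring, Psmb6, Psmb7, Psmb4 and Psmb2 were called lower. Psmb6, which carries the caspase-like site, had 99.0 and 98.6 CPM in wild type control and 75.3 and 74.9 CPM in wild type vehicle mice, and 75.4 and 76.4 CPM in R6/2 control and 55.9 and 62 CPM in R6/2 vehicle mice. Pooled, the genotypes overlapped, because the wild type vehicle mice had the level of the R6/2 control mice. Within each experiment they were apart, and the log2 change was -0.37 (SE 0.06, edgeR adjusted p = 0.00024).

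Psmb7 fell from 223 ± 21.2 to 171 ± 17.9 CPM (SD, n = 4 each), a log2 change of -0.38 (SE 0.07, edgeR adjusted p = 0.00034). Psmb4, a structural beta subunit, changed by -0.34 and Psmb2, another one, by -0.33 on the log2 scale. Exons of Psmb7 overlap those of Nek6 on the opposite strand, and whether the counting used strand is not given in the sources used here. Psmb1, Psmb3 and Psmb5 were not called. Psmb5 had a log2 change whose 95% interval ran from -1.17 to 0.48, so that a change of the size seen in Psma7 was not detectable.

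In the regulatory particle, the ATPase genes Psmc4 and Psmc2 were called lower. Psmc2 had 159, 165, 155 and 151 CPM in wild type and 143, 143, 121 and 112 CPM in R6/2 mice, without overlap, and changed by -0.29 (SE 0.07, edgeR adjusted p = 0.0036). Psmc4 changed by -0.28 (SE 0.07, edgeR adjusted p = 0.0035). None of the 11 non-ATPase genes was called, and their log2 changes ran from -0.28 for Psmd6 to 0.15 for Psmd3. Psmf1, which encodes the inhibitor PI31, was called at -0.20 (SE 0.07, edgeR adjusted p = 0.039), from 29.2 ± 1.25 to 25.5 ± 0.9 CPM (SD, n = 4 each).

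The only higher call was Psme3ip1, which is no subunit but encodes a partner of the activator Psme3. It had 34.7, 34.5, 35.0 and 35.4 CPM in wild type and 50.1, 42.7, 45.1 and 45.6 CPM in R6/2 mice, at a log2 change of 0.39 (SE 0.07, edgeR adjusted p = 0.00041). Psme3 itself had a log2 change of 0.00, with a 95% interval from -0.15 to 0.15.

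**Figure D3:**
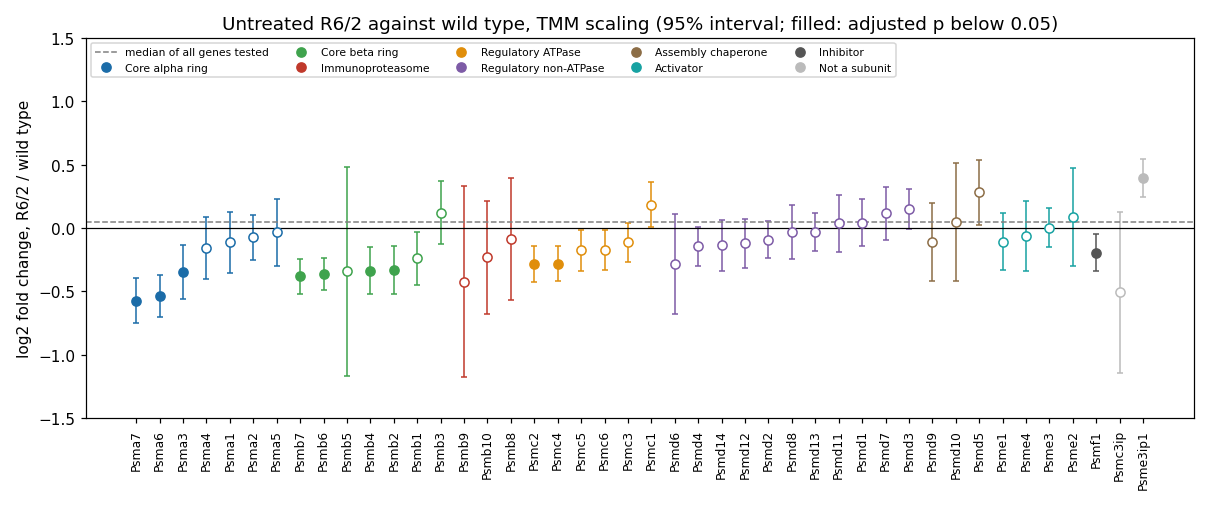
log2 fold change of untreated R6/2 over wild type muscle under TMM scaling with 95% intervals (4 mice against 4), grouped by role. Filled points have an adjusted p below 0.05, and they are 3 alpha ring, 4 beta ring and 2 ATPase genes and Psmf1 below 0, and Psme3ip1 above 0. Scaled by library size alone, all 44 points would lie above 0.

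The treated mice served as a separate comparison of the same genotypes, in mice that the one above did not use. There 10 of the 44 were called (22.7%, against 24.1% of all genes), 9 lower (20.5%, against 11.9%) and 1 higher, and all 10 were among the 11 called in untreated mice. Psmb4 was the one not called, with a log2 change of -0.11. Psma7 changed by -0.49 (edgeR adjusted p = 0.00049) and Psma6 by -0.38 (edgeR adjusted p = 0.0023). Over 8 mice against 8, Psma3, Psma7 and Psme3ip1 did not overlap between the genotypes, where 9.57% of all genes did not. Over the untreated mice alone the groups did not overlap for 10 members, against 27.7% of all genes.

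Taken within each experiment, the control mice gave 5 calls (against 13.1% of all genes), 4 of them lower (9.09%, against 7.26%). The vehicle mice gave 9 (against 20.2%), 8 of them lower (18.2%, against 10.8%). Psma6, Psma7, Psmb6, Psmb7 and Psme3ip1 were called in both. All 11 genes called over the pooled mice had the same sign in both experiments.

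**Figure D4:**
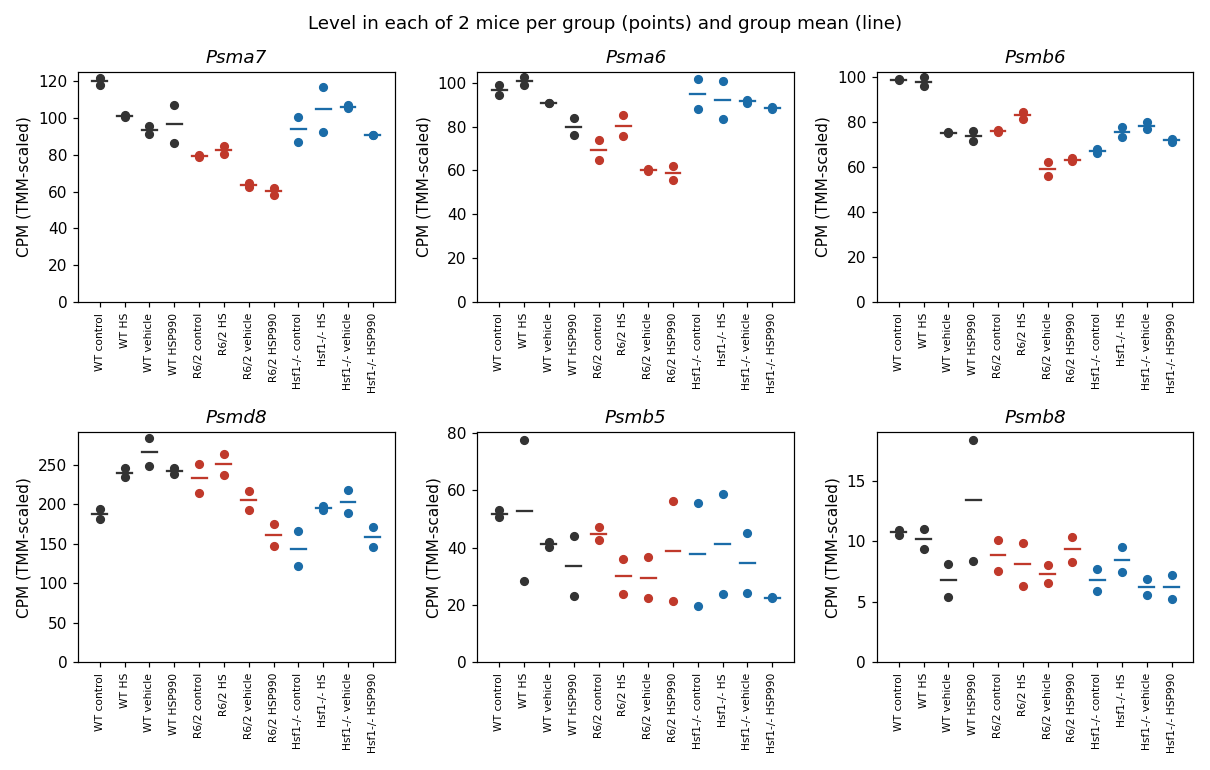
TMM-scaled CPM of 6 genes in each of 24 mice (points) with the mean of each group (line). Psma7 and Psma6 have their lowest levels in R6/2 mice under this scaling, Psmb6 differs between the wild type control and vehicle mice, Psmd8 varies between groups, and Psmb5 and Psmb8 show mice of the same group far apart.

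Other genes of the pathway were read from lists of assembly and associated factors, ubiquitin genes, regulators, and antigen presentation genes, under TMM scaling. Of 21 assembly and associated factors, 8 were called lower and 3 higher in untreated R6/2 muscle, where 15.6% of all genes were called in each direction. The core assembly chaperones Psmg1, Psmg2 and Pomp changed by -0.57, -0.39 and -0.24, and the proteasome adaptor Ecpas by -0.41. Psmg3, another core assembly chaperone, was not lower. Its control and vehicle means were 9.31 and 7.56 CPM in wild type and 9.47 and 7.96 CPM in R6/2 mice. Vcp and its cofactor Nploc4, which extract ubiquitinated proteins, changed by 0.27 and 0.39, and the ubiquitin ligase Ube3c by 0.36. Scaled by library size alone, 16 of the 21 were called higher, against 62.8% of all genes, and 0 lower (edgeR, with Psmg1 at 0.03), while Vcp, Nploc4 and Ube3c stayed called higher.

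Of 3 tested ubiquitin and E1 genes 2 were called higher under TMM scaling and 3 by library size alone. Under TMM scaling the polyubiquitin gene Ubb rose by 0.65 (SE 0.11, edgeR adjusted p = 0.00022) and the ubiquitin-activating enzyme Uba1 by 0.32. Ubb had 115, 124, 116 and 112 CPM in wild type and 203, 179, 173 and 176 CPM in R6/2 mice. Of 12 regulators 5 were called higher and 1, Bach1, lower under TMM scaling, against 15.6% of all genes in each direction, and 12 higher by library size alone, against 62.8%. Bach1 was lower in vehicle mice (-0.63, edgeR adjusted p = 0.0020) but stood at 0.11 in control mice. Nfe2l1 (NRF1), the factor that raises proteasome genes when the proteasome is inhibited, changed by 0.77 (SE 0.15, edgeR adjusted p = 0.00072), from 737 to 1013 CPM in wild type to 1207 to 1817 CPM in R6/2. Nfya, a subunit of the CCAAT-binding factor NF-Y, changed by 1.12 (SE 0.14, edgeR adjusted p = 1.6e-05). The other NF-Y genes moved less. Control and vehicle means of Nfyb were 50.7 and 54.4 CPM in wild type and 51.5 and 57.9 CPM in R6/2 mice. Those of Nfyc were 18.02 and 14.75 CPM in wild type and 23.35 and 17.46 CPM in R6/2 mice.

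In untreated Hsf1-/- muscle 0 of 44 members were called against wild type by edgeR, where 0.902% of all genes were called. At an unadjusted p of 0.05, 11 members (25%) passed against 13.6% of all genes, all of them lower. DESeq2 called 2 lower, Psmb6 and Psmd8. The member with the lowest p was Psmb6, at a log2 change of -0.25 (SE 0.06, edgeR adjusted p = 0.067). It had 68.0 and 66.3 CPM in Hsf1-/- control mice against 99.0 and 98.6 in wild type control mice, and 79.8 and 76.9 CPM in Hsf1-/- vehicle mice against 75.3 and 74.9 in wild type vehicle mice.

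The experiments gave different values for Psmb6, a difference that was not tested. In the control mice, which differ in Y-linked RNA and are 10 and 12 weeks old, Psmb6 changed by -0.56 (edgeR adjusted p = 0.0058) and Psmd4, a ubiquitin receptor, by -0.48 (edgeR adjusted p = 0.032), against 1.72% of all genes called. In the vehicle mice, which all had Y-linked RNA but were 8 and 12 weeks old, 0 members were called (0.102% of all genes), with 2 at an unadjusted p of 0.05, and Psmb6 stood at 0.06. Genotype cannot be told apart from Y-linked status and age in the control mice, or from age in the vehicle mice. Psmd8 was lower in both, by -0.38 in control and -0.39 in vehicle mice, and was not called in either. In the treated mice Psmd8 was the 1 member called (2.21% of all genes were), at -0.46 (edgeR adjusted p = 0.025), with the same differences in age and, for the HS mice, in Y-linked RNA.

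HS left the proteasome genes near their control levels at 4 h. By edgeR 0 of 44 members were called in wild type (2.16% of all genes were), 0 in R6/2 (0.124%) and 0 in Hsf1-/- muscle (0.0654%), and DESeq2 called 0 in each. At an unadjusted p of 0.05 they numbered 3, 0 and 2, below the share of all genes in each case (6.82% against 11.5% in wild type). Estimates above 0 numbered 27 in wild type, 23 in R6/2 and 36 in Hsf1-/- muscle, or 10, 12 and 29 under library size scaling. In Hsf1-/- muscle the median log2 change was 0.094 under TMM scaling, against 0.003 over all genes. The 95% interval lay within a 1.5-fold change in either direction for 34 genes in wild type, 35 in R6/2 and 32 in Hsf1-/- muscle, so a larger change lay outside the interval for most members.

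The member with the lowest p after HS in wild type was Psmf1, with 30.7 and 28.4 CPM in control and 34.3 and 37.9 CPM in HS mice. The mice did not overlap, and the log2 change was 0.29 (SE 0.10, edgeR adjusted p = 0.18). Psmd8, a subunit of the lid of the regulatory particle, had 181 and 194 CPM in wild type control and 246 and 234 CPM in HS mice, at 0.36 (SE 0.15, edgeR adjusted p = 0.31). In Hsf1-/- muscle it had 122 and 166 CPM in control and 198 and 193 CPM in HS mice, at 0.44 (SE 0.15, edgeR adjusted p = 0.31).

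In R6/2 muscle the lowest p after HS belonged to Psma6, with 64.8 and 73.9 CPM in control and 85.1 and 75.8 CPM in HS mice (log2 change 0.21, edgeR adjusted p = 0.57). Psmd6 had 64.0 and 145 CPM in the R6/2 HS mice, the widest gap of that gene in any group. Without the mouse at 145 CPM, the log2 changes were -0.91 for Psmd6 and -0.46 for Psmd12. The HS mouse that remains is then alone in its group, and it is the lower one for Psmd6.

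HSP990 likewise gave 0 called members in wild type (1.82% of all genes), R6/2 (1.74%) and Hsf1-/- muscle (0.254%), by edgeR and by DESeq2. At an unadjusted p of 0.05 there were 3, 2 and 1, and the 95% intervals were within 1.5-fold for 35, 37 and 35 genes. In wild type mice 35 of the 44 estimates were below 0, with a median log2 change of -0.10 against 0.00 over all genes, and 33 were below 0 under library size scaling. In Hsf1-/- mice 33 were below 0, but 35 were above 0 when scaled by library size.

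The 3 immunoproteasome genes had estimates above 0 after HSP990 in wild type mice. In R6/2 mice they were above 0 as well, at 0.67 (Psmb9), 0.37 (Psmb8) and 0.25 (Psmb10), without a call. In Hsf1-/- mice 1 of the 3 was above 0. Psmb8 had 8.15 and 5.39 CPM in wild type vehicle and 8.38 and 18.4 CPM in wild type HSP990 mice. One HSP990 mouse stood far above the rest and the other was near the vehicle mice, and the log2 change was 1.01 (SE 0.33, edgeR adjusted p = 0.15). Without the lower HSP990 mouse the log2 change was 1.44, and without the higher one it was 0.31. In each of these fits the HSP990 mouse that remains is alone in its group.

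Psmb9 moved with it, from 3.64 and 1.98 CPM to 3.89 and 7.75 CPM, at 1.10 (SE 0.51, edgeR adjusted p = 0.36), and Psmb10 changed by 0.30. The summed level of 13 leukocyte markers was 98.1 and 70.7 CPM in the wild type vehicle mice and 90.8 and 164 CPM in the HSP990 mice, highest in the mouse that was highest for Psmb8 and Psmb9. In wild type control mice it was 140 and 171 CPM, where Psmb8 had 10.9 and 10.6 CPM. The leukocyte markers contributed unequally to this sum. Over all mice Cd74 had 23.2 to 107 CPM, H2-Ab1 6.94 to 47.3 CPM and H2-Aa 9.20 to 44.85 CPM. Csf1r came next, at no more than 21.6 CPM, and Ptprc had no more than 5.36 CPM. The sum therefore follows a few abundant markers most closely and is not a measure of leukocyte number. Fibroblast markers summed to 795 and 812 CPM in the vehicle and 1298 and 1330 CPM in the HSP990 mice, and endothelial markers to 462 and 383 CPM and to 556 and 631 CPM, without overlap in either case. The part of these cells in the levels was not tested. Over 16 antigen presentation and interferon genes the median log2 change was 0.88, and B2m (0.91) and Irf9 (0.92) were called, against 1.82% of all genes. Without the mouse that was highest for Psmb8 the median was 0.42 and 0 of the 16 were called, and leaving out either vehicle mouse also left 0 called.

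In R6/2 muscle Psmd8 was not called after HSP990, with 193 and 217 CPM in vehicle and 147 and 176 CPM in HSP990 mice (log2 change -0.35, SE 0.14, edgeR adjusted p = 0.36). In Hsf1-/- muscle it had 189 and 218 CPM in vehicle and 171 and 146 CPM in HSP990 mice (-0.36, SE 0.15, edgeR adjusted p = 0.40). In wild type mice it had 284 and 249 CPM in vehicle and 239 and 246 CPM in HSP990 mice. Its estimates were thus above 0 after HS in wild type and Hsf1-/- mice and below 0 after HSP990 in R6/2 and Hsf1-/- mice, all without a call.

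**Figure D5:**
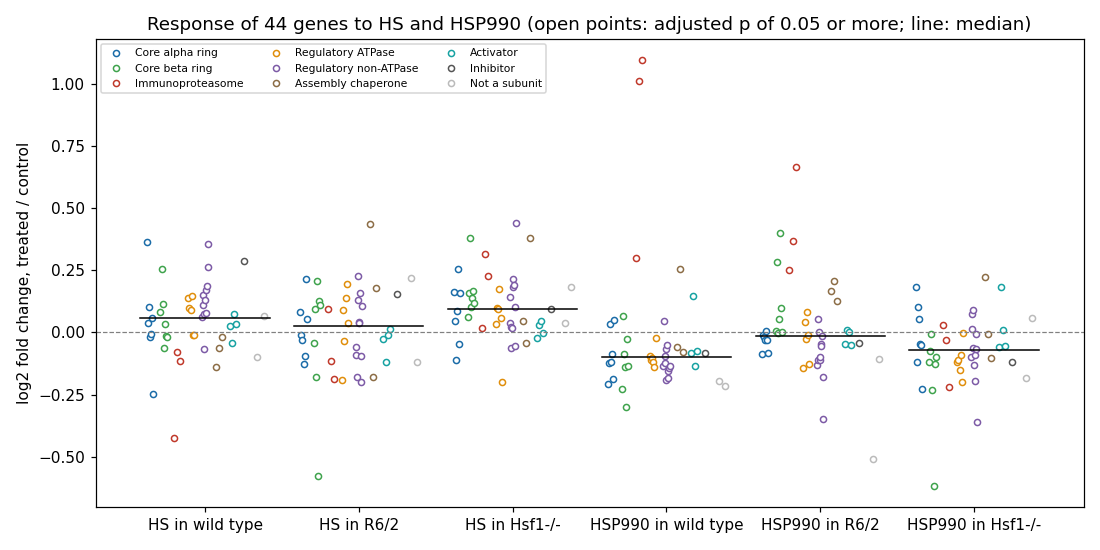
log2 fold change of treated over control mice (2 against 2) for 44 genes in 6 comparisons under TMM scaling, coloured by role, with the median as a line. No point has an adjusted p below 0.05, and the 2 points above 1 are Psmb8 and Psmb9 after HSP990 in wild type muscle.

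Responses were also compared between genotypes as interactions. Hsf1-/- mice differed from wild type mice in age in both experiments, and in Y-linked RNA in the HS experiment. Genotype cannot be told apart from these in the comparisons with Hsf1-/- mice. For HS, 0 members differed between R6/2 and wild type (0.0872% of all genes did) and 0 between Hsf1-/- and wild type (0.138%), with 0 and 1 at an unadjusted p of 0.05. For HSP990 the counts were 0 against R6/2 (0% of all genes) and 0 against Hsf1-/- (0.4%), with 0 and 1 at an unadjusted p of 0.05. DESeq2 called 0 in each. These intervals are wider, and lay within 1.5-fold for 23, 28, 29 and 29 of the 44 genes in that order. Psmb8 had the lowest p for HSP990 in Hsf1-/- against wild type, at -1.04 (95% interval -2.06 to -0.02, edgeR adjusted p = 0.73). With 1 mouse left out it ran from -1.47 to -0.34, the latter without the wild type HSP990 mouse that was highest for Psmb8.

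The response of wild type mice to HS was set against that to HSP990. By edgeR 0 members differed (2.26% of all genes did), by DESeq2 0, and 5 passed an unadjusted p of 0.05. The difference was above 0 for 37 of 44 members, with a median of 0.16 on the log2 scale against -0.02 over all genes, and for 21 of 44 when scaled by library size. The lowest p was that of Psmf1, at 0.37 (SE 0.14, edgeR adjusted p = 0.21).

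A few genes around the proteasome were called where its subunits were not. Zfand2a (AIRAP), which associates with the regulatory particle under stress, had 22.3 and 18.1 CPM in wild type vehicle and 56.8 and 59.2 CPM in HSP990 mice, at 1.52 (SE 0.20, edgeR adjusted p = 0.00027). Ubqln1, a ubiquitin shuttle, was called at 0.67 after HSP990. The other 19 of 21 assembly and associated factors were not, where 1.82% of all genes were called. HS called 0 of the 21 in wild type mice, while 3 of 12 regulators were called higher, where 2.16% of all genes were called. These were the small Maf genes Maff (2.96) and Mafk (1.39), partners of NRF1 and NRF2, and Bach1 (0.66), which competes with them. For Bach1 the HS mice (70 and 77 CPM) lay above the control mice (44 and 49 CPM). They overlapped the unheated wild type vehicle mice (75 and 85 CPM). For Maff and Mafk the HS mice lay above the control and the vehicle mice.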

How the data were processed

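Libraries were strand-specific, paired-end and polyA-selected, and per the labels the reads were mapped to mm9 with Bowtie and analysed with DESeq2 by the authors. The deposited values are raw counts per gene, 1 column per mouse, without normalization. The counting program and the annotation are not given in the sources used here. Genes carry NCBI gene numbers, of which 18594 of 18669 were matched to a symbol.

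A gene was tested if it reached 2 counts in 10 or more libraries, which left 13754, on the counts as deposited. The 24 libraries (22450177 to 46599238 counts) were scaled by TMM and fitted as 12 groups with edgeR 4.0.16 (limma 3.58.1, R 4.3.3), using quasi-likelihood tests (12 residual degrees of freedom) and Benjamini-Hochberg adjustment over all genes at 0.05 in each of 13 comparisons. "Called" means past this threshold, and intervals are 95% intervals of the log2 change. CPM are TMM-scaled. Untreated genotypes were compared as the mean of control and vehicle groups. Alternatives included DESeq2 1.42.0, scaling by library size, other filters, a replicate block and each mouse left out. Near-identical copies were sought with minimap2 2.31-r1302. The tests were checked on simulated data, with 1 dispersion for all genes and larger changes than those of the called members. The simulated libraries did not differ in composition, so the check does not cover the shift seen in R6/2.

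Named members were the 2 with the lowest p in each comparison, or up to 8 called ones. Others were chosen after their values were seen. The members and the gene lists were chosen with earlier results of these data known. The labels give 2 samples per group, taken here as 2 mice. The p-values set each change against a spread between samples that is pooled over all 12 groups and drawn partly from other genes. A comparison of 2 mice against 2 cannot give an exact permutation p below 0.333, so only fits across all genes were used.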

Additional observations from a re-analysis of the deposited data

Results flagged for a closer look

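Among 132 groups of 4 untreated mice, 1 for each gene and genotype, 2 held a mouse far from the other 3. Chance flags about 1 in 20 groups of 4 mice of one kind, and 2 are fewer than that. Each group here joins control and vehicle mice, whose levels differed for some genes, so this rate need not apply. Psmc1, an ATPase of the regulatory particle, stood at 137.9 CPM in R6/2 control replicate 1, where the nearest of the other untreated R6/2 mice had 112 CPM. Psmd9, an assembly chaperone, stood at 33.93 CPM in R6/2 control replicate 2, where the nearest had 26.5 CPM. Neither gene was called in any of the comparisons over all mice, and Psmc1 was called higher in untreated R6/2 muscle (log2 change 0.27, edgeR adjusted p = 0.025) without R6/2 control replicate 2.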

How the results depend on the processing

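Counts of called members were recomputed in 206 alternative fits, and 198 stayed within 1.5 times the count reported. For untreated R6/2 against wild type, the count of 11 was 5 in control mice only and 35 (all higher) by library size only. By library size only 7 named genes turned, to log2 changes of 0.034 (Psma7), 0.069 (Psma6), 0.24 (Psmb6), 0.23 (Psmb7), 0.33 (Psmc4), 0.32 (Psmc2) and 0.27 (Psmb4). For untreated Hsf1-/- against wild type the count of 0 became 2 in control mice only, 2 with DESeq2 and 1 in the treated mice (Psmd8, -0.46), and Psmb6 turned to 0.061 in vehicle mice only. Leaving out 1 mouse gave 9 to 12 calls for untreated R6/2 and 0 to 1 for untreated Hsf1-/- (Psmd8, without Hsf1-/- control replicate 2). It gave 0 to 2 for HS in R6/2 (Psmd6 and Psmd12, without R6/2 HS replicate 2), 0 to 1 for HSP990 in wild type (Psmb8, without wild type HSP990 replicate 1), and 0 in the other comparisons. A mouse left alone in its group is assumed to vary like the others. The difference in the HSP990 response of Psmb8 between R6/2 and wild type, -0.64, was 0.057 without wild type HSP990 replicate 2, and ran from -1.08 to 0.057. The causes were not tested.

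Replicate numbers are not stated to pair mice. With the replicate block the count stayed at 11 for untreated R6/2 and at 0 elsewhere. Deviations of same-numbered mice correlated at -0.20 (HS, wild type), -0.16 (HS, R6/2), 0.24 (HS, Hsf1-/-), 0.20 (HSP990, wild type), -0.09 (HSP990, R6/2) and -0.11 (HSP990, Hsf1-/-). A crossed pairing in the 3 groups below -0.1, added after seeing the data together with the comparison of treated mice, left their counts at 0. With 2 mice per group, the intervals of the immunoproteasome genes, at most 18.4 CPM in all mice, were wide (for Psmb9 after HSP990 in wild type, 0.03 to 2.17).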

Other observations

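Zfand5, a stress-inducible proteasome activator linked to muscle wasting, varied between the experiments in wild type muscle. It had 281 and 266 CPM in control and 473 and 439 CPM in HS mice, and 480 and 491 CPM in vehicle and 439 and 338 CPM in HSP990 mice. In untreated R6/2 mice it had 253, 187, 218 and 257 CPM, lower than in any of the wild type mice, and its log2 change was -0.67 (SE 0.14, edgeR adjusted p = 0.0012), or -0.07 scaled by library size alone. Psme4, which encodes the PA200 activator, had the widest SD among the members in untreated wild type mice in CPM, at 526 ± 119 CPM (n = 4), against 497 ± 29.6 in R6/2 and 600 ± 61.4 in Hsf1-/- mice. In control mice only, it was 0.59 higher in Hsf1-/- than in wild type mice on the log2 scale (edgeR adjusted p = 0.12).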
